A study of Mus musculus with 14 samples.

Results

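The Kmt2 family holds the enzymes that place methyl groups on lysine 4 of histone H3 (H3K4), together with Kmt2e, a relative that shares their SET domain. Its 7 genes Kmt2a, Kmt2b, Kmt2c, Kmt2d, Kmt2e, Setd1a and Setd1b were chosen by symbol as the members of the family, with no rule on measured values, and are 7 of 16569 genes tested. All 7 had a value in each of the 14 libraries, so the filter on low values removed none of them. The data are 14 RNA libraries of hippocampus from C57BL6 mice. The labels do not say that each library is a separate mouse, so p-values measure the spread between these libraries. Wild-type mice (KMT2D+/+) were compared with mice carrying 1 trapped copy of Kmt2d (KMT2D+/bGeo), each given either methylcellulose vehicle or TAK-418, an inhibitor of the H3K4 demethylase LSD1. Dosing was by gavage at 1 mg/kg/day of TAK-418 in methylcellulose, or methylcellulose alone, for 2 weeks from 2 weeks of age, and the age label is 30 days. There were 3 vehicle wild types, 3 vehicle mutants, 5 treated wild types and 3 treated mutants. The series text gives fewer mice per group than the 5 treated wild types. By their genotype the mutants keep 1 untrapped copy of Kmt2d, and where the trap lies is not given in the sources used here. The libraries are of bulk hippocampus, so fewer cells of a type and less RNA per cell cannot be told apart.

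As background, the enzymes of this family work inside large complexes, called COMPASS complexes, built on a shared core of Wdr5, Rbbp5, Ash2l and Dpy30. Kmt2a and Kmt2b bind menin (Men1) and methylate promoters of developmental genes. Kmt2c and Kmt2d act with the H3K27 demethylase Kdm6a and with Ncoa6, Paxip1 and Pagr1a, mainly at enhancers, where they place a single methyl group. Setd1a and Setd1b act with Cxxc1 and Wdr82 and place most of the trimethyl mark at active promoters. Kmt2e binds methylated H3K4 and is not known to have methyltransferase activity of its own. In people, loss of 1 copy of KMT2D causes Kabuki syndrome, whose features include intellectual disability, and fewer newborn neurons in the hippocampus have been reported in mice with 1 mutant copy.

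Values are abundances of transcripts that the authors assembled in each library, summed per gene and scaled between libraries. They behave as FPKM does, as a level per length and per depth. Relative depth, read from the step between values, was 35.1 to 59.98 M fragments in 13 libraries and 168 M in treated wild-type replicate 1. Of 6 marker genes of hippocampal neurons, 5 were listed in every library, and Spink8 was at 0 in some. Their summed level was 373 to 436. The 6 choroid plexus markers, genes of the tissue that makes cerebrospinal fluid, were uneven between libraries: their summed level was 20.3 to 6497 in vehicle wild types, 44.2 to 5055 in vehicle mutants, 15.99 to 43.4 in treated wild types and 20.5 to 609.8 in treated mutants, with Aqp1, Clic6 and Kcne2 at 0 in some libraries. The highest values were in vehicle wild-type replicate 3 and vehicle mutant replicate 1. Next were vehicle mutant replicate 3 at 913 and treated mutant replicate 1 at 609.8, and the other libraries were at 15.99 to 44.2. The 4 markers of newborn granule neurons summed to 39.8 to 53.2 and 50.3 to 54.2 in vehicle wild types and mutants, and to 57.2 to 66.4 and 54.8 to 59.1 in treated wild types and mutants, with Sox11 at 0 in some libraries. Markers of oligodendrocytes, microglia and thalamus were listed in every library, with summed levels of 3145 to 5261, 89.1 to 113 and 19.5 to 24.96. The part of these tissues and cells in the results on the family was not tested. Kdm5d, a gene on the Y chromosome, was listed in 1 of 3 vehicle wild types, 2 of 3 vehicle mutants, 3 of 5 treated wild types and 2 of 3 treated mutants. The labels give no sex, and its part in the results was not tested.

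Kmt2d, the trapped gene, was lower on average in mutants than in wild types under both treatments, but no comparison passed the test. It lies on the minus strand at chr15:98831669-98871204 of GRCm38, with 55 exons and 5588 codons in its longest coding transcript. Its summed abundance was 14.04, 14.3 and 13.8 in the 3 wild-type vehicle libraries, 10.7, 10.8 and 14.5 in the 3 mutant vehicle libraries, 13.8, 18.1, 12.6, 14.5 and 17.5 in the 5 wild-type TAK-418 libraries, and 14.6, 13.4 and 9.38 in the 3 mutant TAK-418 libraries. The vehicle wild types lay close together, 2 of the 3 vehicle mutants were below all of them, and vehicle mutant replicate 3 was above all of them. The means were 14.1 ± 0.235 (SD, n = 3) in vehicle wild types, 11.97 ± 2.15 (SD, n = 3) in vehicle mutants, 15.3 ± 2.38 (SD, n = 5) in treated wild types and 12.5 ± 2.74 (SD, n = 3) in treated mutants. With limma, mutants differed from wild types by -0.23 ± 0.17 (log2, SE, adjusted p 0.999) under vehicle and by -0.29 ± 0.15 (log2, SE, adjusted p 0.926) under TAK-418. Over both treatments the difference was -0.26 ± 0.11 (log2, SE, unadjusted p 0.0425, adjusted p 0.847). No member was called in any of these comparisons, where 0.0%, 0.0121% and 0.00604% of all genes tested were called.

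With TAK-418, Kmt2d differed from vehicle by 0.04 ± 0.17 (log2, SE, adjusted p 1.00) in mutants and by 0.10 ± 0.15 (log2, SE, adjusted p 0.859) in wild types, by limma. The treated mutants, set against the wild types given vehicle, differed by -0.18 ± 0.17 (log2, SE, adjusted p 1.00). The interaction, which asks whether the drug difference itself differed between genotypes, was -0.06 ± 0.23 (log2, SE, adjusted p 0.991) with limma.

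The way in which Kmt2d was assembled bears on these values. Every library held a Kmt2d transcript of 55 exons, and 10 of the 14 also held single-exon pieces, which add to the sum. With multi-exon transcripts alone, the values were 11.1, 11.1 and 13.8 in the 3 wild-type vehicle libraries, 10.7, 9.26 and 13.04 in the 3 mutant vehicle libraries, 13.8, 15.5, 11.9, 12.98 and 14.9 in the 5 wild-type TAK-418 libraries, and 11.8, 11.8 and 9.39 in the 3 mutant TAK-418 libraries. On this measure the highest of the 3 treated mutants was below the lowest of the 5 treated wild types, while the vehicle groups overlapped. Kmt2d was the 1 member whose groups did not overlap in that comparison on this measure, and 2.32% of genes were lower without overlap in the same way. The limma difference was -0.30 ± 0.12 (log2, SE, unadjusted p 0.0264, adjusted p 0.926) under TAK-418 and -0.13 ± 0.13 (log2, SE, adjusted p 0.998) under vehicle. Over both treatments it was -0.22 ± 0.09 (log2, SE, unadjusted p 0.0343, adjusted p 0.831). The multi-exon measure was singled out after its values were seen. Leaving out treated mutant replicate 3, the lowest of its group, moved the difference under TAK-418 from -0.29 to -0.11 in the fit on all transcripts.

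**Figure D1:**
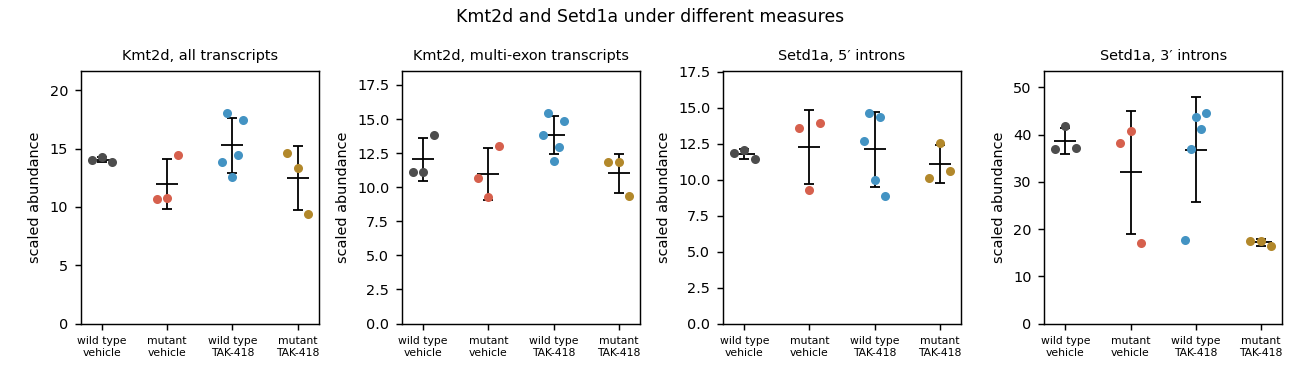
Scaled abundance (vertical axis) in each library by group, for Kmt2d with all transcripts and with multi-exon transcripts, and for Setd1a as the median over its 5′ introns and over its 3′ introns; points are libraries and bars are the mean and SD. For Kmt2d with multi-exon transcripts the highest treated mutant, 11.84, lies just below the lowest treated wild type, 11.94. For the Setd1a 3′ introns, whose support also counts transcripts joined to another gene, these are 17.57 and 17.70. The libraries with little or no Setd1a transcript joined to another gene are the lowest there. The part of the joining was not tested, and no share over all genes was computed for intron support.

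A trap that ends transcripts early could leave the last introns of Kmt2d less covered, so the support of its last 4 introns was set against that of all its others. The support of an intron is the summed abundance of the assembled transcripts that hold it. The log2 ratio was 0 to 0.0337 over the 14 libraries, with an exact two-sided permutation p of 0.995 for mutants against wild types within treatment. Full-length assembly gives each intron nearly the same value, so the ratio sits near 0 in each library, and a fall inside a transcript cannot be seen in it. Each transcript carries 1 abundance, and the trap itself was not looked for in the assembled sequences.

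Kmt2c, which like Kmt2d acts mainly at enhancers, was the least variable member over the libraries by summed abundance. It lies on the minus strand at chr5:25271798-25498783, with 59 exons and 4904 codons. Its summed abundance was 18.3, 17.5 and 15.6 in the 3 wild-type vehicle libraries, 18.2, 15.98 and 18.2 in the 3 mutant vehicle libraries, 14.7, 17.1, 15.9, 18.3 and 16.8 in the 5 wild-type TAK-418 libraries, and 18.5, 15.8 and 20.2 in the 3 mutant TAK-418 libraries. All 4 groups overlapped, and the means were 17.1 ± 1.38 (SD, n = 3) in vehicle wild types, 17.5 ± 1.30 (SD, n = 3) in vehicle mutants, 16.6 ± 1.35 (SD, n = 5) in treated wild types and 18.2 ± 2.21 (SD, n = 3) in treated mutants. The coefficient of variation of the sum over the 14 libraries was 8.70%. The Setd1a sum, the most variable, was at 20.1%, but it leaves out transcripts joined to another gene. Setd1a was at 15.98% on introns outside the joined transcripts, and the Kmt2a sum was at 19.7%. The median was 14.3% over all genes tested. It was 9.43% over the 4791 genes whose mean lay within the range of the members' means. Mutants differed from wild types by 0.03 ± 0.10 (log2, SE, adjusted p 1.00) under vehicle and by 0.12 ± 0.09 (log2, SE, adjusted p 0.926) under TAK-418, by limma.

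No library held a near full-length Kmt2c transcript. The assembled pieces fell into a weak 5′ part and a strong 3′ part, with the step after intron 35 of 58 in 11 libraries. In vehicle wild-type replicates 1 and 2 it came 1 intron later, and in treated mutant replicate 3 it came 2 introns later. The median support was 0 to 1.23 over introns 1 to 35, and 13.4 to 16.7 over introns 36 to 58. The position used to part them was chosen after the values were seen. The 3′ values were 15.8, 14.5 and 14.6 in the 3 wild-type vehicle libraries, 13.4, 14.6 and 14.7 in the 3 mutant vehicle libraries, 13.8, 14.6, 14.02, 14.9 and 14.4 in the 5 wild-type TAK-418 libraries, and 14.6, 13.8 and 16.7 in the 3 mutant TAK-418 libraries. Here too the groups overlapped. The Kmt2c sum is therefore mainly a measure of its 3′ part. In the plot of support along the genes, Kmt2d and Setd1b are level across nearly all introns, Kmt2c and Setd1a step up, and Kmt2a and Kmt2b rise toward their 3′ ends in some libraries.

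**Figure D2:**
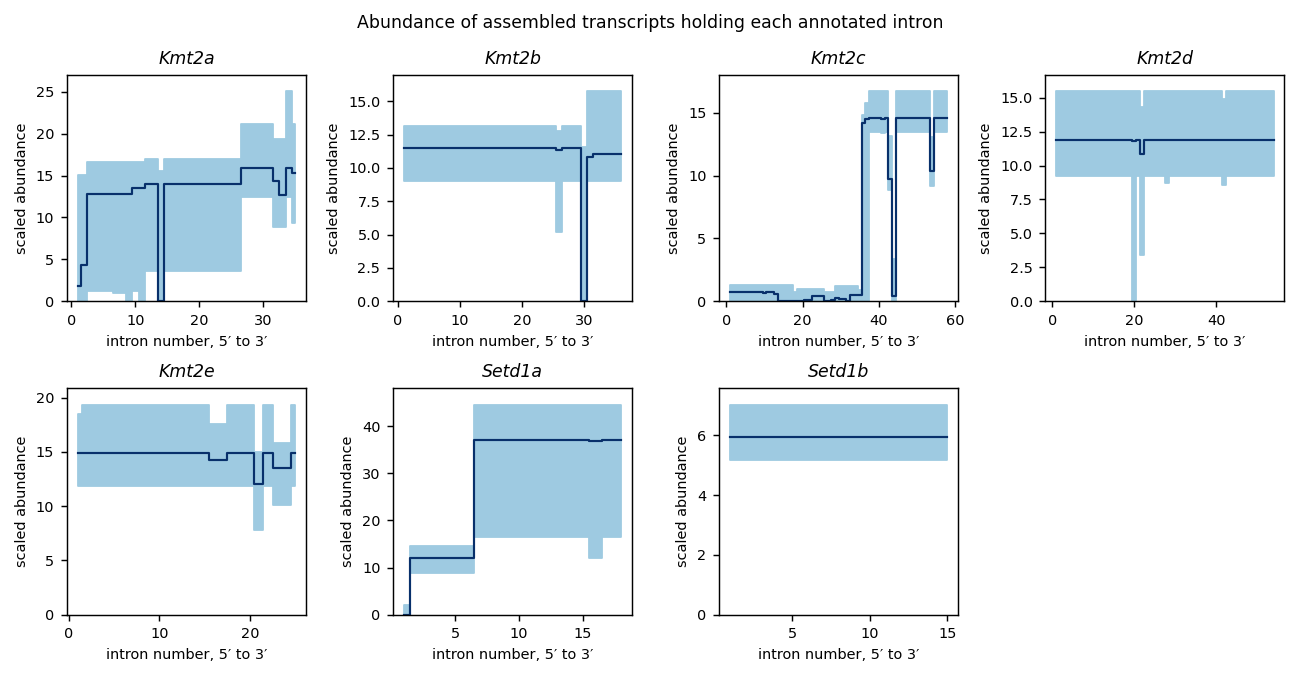
Scaled abundance of assembled transcripts holding each annotated intron (vertical axis) by intron number from 5′ to 3′ (horizontal axis), for each member; the line is the median and the band the range over the 14 libraries. The median lines of Kmt2c and Setd1a rise after introns 35 and 6, the band of Kmt2a is wide before intron 27, and the narrow dips are single introns with lower support.

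Kmt2a and Kmt2b, the menin-bound pair, showed no called change. Kmt2a lies on the minus strand at chr9:44803355-44881296 with 36 exons and 3966 codons. Its summed abundance was 18.3, 14.01 and 20.3 in the 3 wild-type vehicle libraries, 12.5, 20.6 and 18.6 in the 3 mutant vehicle libraries, 25.1, 15.1, 17.1, 21.1 and 16.96 in the 5 wild-type TAK-418 libraries, and 13.1, 17.7 and 15.8 in the 3 mutant TAK-418 libraries. The groups overlapped, and their means were 17.5 ± 3.23 (SD, n = 3) in vehicle wild types, 17.2 ± 4.25 (SD, n = 3) in vehicle mutants, 19.1 ± 4.01 (SD, n = 5) in treated wild types and 15.6 ± 2.30 (SD, n = 3) in treated mutants. Kmt2a was assembled near full length, with at least 90% of its annotated introns in 1 transcript, in 11 of the 14 libraries. Its sum also adds up pieces of the gene. In 4 libraries the support rose between introns 26 and 27: from 3.58 to 19.4 in vehicle mutant replicate 2, from 6.74 to 19.4 and from 7.15 to 21.1 in treated wild-type replicates 1 and 4, and from 8.55 to 17.7 in treated mutant replicate 2. Vehicle wild-type replicates 1 and 3 held breaks nearer the 5′ end, while replicate 2 was at 14.01 at intron 1. In replicate 1 the support was 1.28 over introns 1 to 10, 0 at intron 11 and 17.03 at intron 12. In vehicle wild-type replicate 3 it was 0 to 1.55 over introns 1 to 9 and 16.4 at intron 10. Low support at intron 1 was not limited to vehicle wild types. It was 0 and 1.82 in vehicle mutant replicates 2 and 3, and 1.76 in treated mutant replicate 3. Treated wild-type replicates 3, 4 and 5 were at 1.57, 0 and 1.46 there. The sum and the intron level of Kmt2a are therefore uncertain in all of these libraries. Mutants differed from wild types by -0.04 ± 0.21 (log2, SE, adjusted p 1.00) under vehicle and by -0.27 ± 0.19 (log2, SE, adjusted p 0.926) under TAK-418, by limma.

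Kmt2b lies on the minus strand at chr7:30568858-30588726 with 37 exons and 2721 codons, and was assembled near full length in all 14 libraries. Its summed abundance was 9.53, 9.05 and 12.2 in the 3 wild-type vehicle libraries, 11.3, 10.8 and 13.2 in the 3 mutant vehicle libraries, 14.9, 12.3, 11.9, 17.1 and 12.8 in the 5 wild-type TAK-418 libraries, and 10.6, 16.4 and 10.99 in the 3 mutant TAK-418 libraries. Vehicle wild types held the 2 lowest values of the 14 libraries, and 3 libraries, treated wild-type replicates 1 and 4 and treated mutant replicate 2, held the highest. In these 3 libraries the support rose over introns 31 to 36, to 14.9, 15.8 and 15.2, while the median over all Kmt2b introns was 11.3, 12.9 and 11.7. On that median the group means were 10.3 ± 1.71 (SD, n = 3) in vehicle wild types, 11.8 ± 1.26 (SD, n = 3) in vehicle mutants, 12.2 ± 0.658 (SD, n = 5) in treated wild types and 11.1 ± 0.543 (SD, n = 3) in treated mutants, so the treated mutants were lower than the vehicle mutants there and higher in the sum. The means of the sum were 10.3 ± 1.71 (SD, n = 3) in vehicle wild types, 11.8 ± 1.26 (SD, n = 3) in vehicle mutants, 13.8 ± 2.17 (SD, n = 5) in treated wild types and 12.7 ± 3.25 (SD, n = 3) in treated mutants. In wild types TAK-418 differed from vehicle by 0.39 ± 0.16 (log2, SE, unadjusted p 0.0268, adjusted p 0.517), the largest difference among the members in the 8 comparisons on all transcripts, and it did not pass the limma threshold. In that comparison 0.00604% of all genes tested were called and 8.44% had an unadjusted p under 0.05. In mutants the difference with TAK-418 was 0.08 ± 0.17 (log2, SE, adjusted p 1.00), where 0.00604% of all genes were called. Without treated mutant replicate 2 that difference turned to -0.11. The interaction was -0.31 ± 0.23 (log2, SE, adjusted p 0.977) by limma, with 0.00604% of all genes called.

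Setd1a and Setd1b, which act with Cxxc1 and Wdr82, gave values that depended on how they were assembled. Setd1a lies on the plus strand at chr7:127776670-127800122 with 19 exons and 1716 codons. The annotated gene Gm49388 lies on the same strand, shares 3523 exon bases with Setd1a and runs into Hsd3b7, its neighbour. In 11 libraries transcripts that hold Setd1a introns were assigned to Gm49388, and in treated mutant replicate 1 some were assigned to Fbxl19, the gene upstream. The abundance of these joined transcripts was 33.7, 31.8 and 25.1 in the 3 wild-type vehicle libraries, 35.7, 32.8 and 5.64 in the 3 mutant vehicle libraries, 4.78, 23.7, 31.8, 33.1 and 32.3 in the 5 wild-type TAK-418 libraries, and 8.83, 0 and 0 in the 3 mutant TAK-418 libraries. They are not in the Setd1a sum, so that sum is uncertain.

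The Setd1a sum was 15.2, 22.1 and 23.6 in the 3 wild-type vehicle libraries, 16.1, 17.3 and 25.3 in the 3 mutant vehicle libraries, 25.6, 27.9, 21.99, 22.3 and 21.2 in the 5 wild-type TAK-418 libraries, and 18.8, 30.1 and 26.97 in the 3 mutant TAK-418 libraries. The groups overlapped, with the 3 lowest values in vehicle libraries. The difference with TAK-418 was 0.36 ± 0.21 (log2, SE, adjusted p 1.00) in mutants and 0.24 ± 0.19 (log2, SE, adjusted p 0.748) in wild types, and 0.30 ± 0.14 (log2, SE, unadjusted p 0.0581, adjusted p 0.629) over both genotypes by limma, where 0.0121% of all genes tested were called. Without vehicle wild-type replicate 1 the difference in wild types was 0.05, and without treated mutant replicate 2 that in mutants was 0.22. With abundance times length in place of abundance it was 0.64 ± 0.27 (log2, SE, unadjusted p 0.0378, adjusted p 1.00) in mutants by limma, and 0.50 ± 0.18 (log2, SE, unadjusted p 0.0182, adjusted p 0.4997) over both genotypes by limma. Joined transcripts held introns 2 to 6 in fewer than 4 libraries, and their abundance is counted where they do. These introns give a level less affected by Gm49388. Their median support was 11.9, 12.03 and 11.4 in the 3 wild-type vehicle libraries, 13.6, 9.30 and 13.9 in the 3 mutant vehicle libraries, 12.7, 14.6, 9.96, 14.4 and 8.83 in the 5 wild-type TAK-418 libraries, and 10.1, 12.6 and 10.6 in the 3 mutant TAK-418 libraries. All groups overlapped on this measure, and treated mutants were not higher: the means were 11.8 ± 0.320 (SD, n = 3) in vehicle wild types, 12.3 ± 2.58 (SD, n = 3) in vehicle mutants, 12.1 ± 2.61 (SD, n = 5) in treated wild types and 11.1 ± 1.30 (SD, n = 3) in treated mutants. Introns 7 to 18 had a median support of 36.97, 41.9 and 37.3 in the 3 wild-type vehicle libraries, 38.2, 40.8 and 17.01 in the 3 mutant vehicle libraries, 17.7, 37.02, 43.8, 41.1 and 44.6 in the 5 wild-type TAK-418 libraries, and 17.6, 17.6 and 16.4 in the 3 mutant TAK-418 libraries. On these introns, whose support also counts the joined transcripts, the treated mutants were below every treated wild type and every vehicle wild type. It is therefore not a level of Setd1a alone. The summed abundance, which leaves the joined transcripts out, had its highest mean in the treated mutants. The 5 libraries with little or no joined transcript, the 3 treated mutants, vehicle mutant replicate 3 and treated wild-type replicate 1, are the 5 with the lowest support here, and the part of the joining in this difference was not tested. No share over all genes was computed for intron support. The 2 measures were compared after their values were seen, and no test of the intron values was made.

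Setd1b lies on the plus strand at chr5:123142193-123168629 with 16 exons and 1985 codons, and was assembled near full length in all 14 libraries. It had the lowest level of the family. Its summed abundance was 5.84, 5.45 and 7.02 in the 3 wild-type vehicle libraries, 5.96, 5.18 and 6.93 in the 3 mutant vehicle libraries, 6.81, 7.01, 8.43, 6.86 and 6.63 in the 5 wild-type TAK-418 libraries, and 5.86, 5.95 and 5.84 in the 3 mutant TAK-418 libraries. The treated mutants lay within a narrow range and below all 5 treated wild types, while the vehicle groups overlapped. Setd1b was the 1 member whose groups did not overlap in that comparison on all transcripts, beside 2.37% of all genes tested. The means were 6.11 ± 0.819 (SD, n = 3) in vehicle wild types, 6.02 ± 0.874 (SD, n = 3) in vehicle mutants, 7.15 ± 0.727 (SD, n = 5) in treated wild types and 5.88 ± 0.0564 (SD, n = 3) in treated mutants. Mutants differed from wild types by -0.24 ± 0.10 (log2, SE, unadjusted p 0.0323, adjusted p 0.926) under TAK-418 and by -0.02 ± 0.11 (log2, SE, adjusted p 1.00) under vehicle, by limma. A single-exon piece in treated wild-type replicate 3 made it the highest library, and with multi-exon transcripts alone its value was 5.88 in place of 8.43, so the groups then overlapped. The limma difference under TAK-418 on that measure was -0.15 ± 0.09 (log2, SE, adjusted p 0.926).

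Kmt2e, the member without known enzyme activity, lies on the plus strand at chr5:23434441-23504235 with 26 exons and 1868 codons. Its summed abundance was 15.3, 18.1 and 14.97 in the 3 wild-type vehicle libraries, 16.2, 11.9 and 13.4 in the 3 mutant vehicle libraries, 15.1, 14.9, 13.3, 14.6 and 19.3 in the 5 wild-type TAK-418 libraries, and 15.2, 13.5 and 12.5 in the 3 mutant TAK-418 libraries. The groups overlapped, and their means were 16.1 ± 1.70 (SD, n = 3) in vehicle wild types, 13.8 ± 2.17 (SD, n = 3) in vehicle mutants, 15.5 ± 2.28 (SD, n = 5) in treated wild types and 13.7 ± 1.38 (SD, n = 3) in treated mutants. Mutants differed from wild types by -0.21 ± 0.14 (log2, SE, adjusted p 0.963) under vehicle and by -0.16 ± 0.12 (log2, SE, adjusted p 0.926) under TAK-418, and by -0.18 ± 0.09 (log2, SE, unadjusted p 0.0665, adjusted p 0.853) over both treatments, by limma. The sign turned to 0.32 under vehicle with the highest transcript only, and to 0.03 under TAK-418 with abundance times length. Kmt2e shares 972 exon bases with Srpk2 on the opposite strand, and use of strand in the authors' assembly is not stated, so its level is uncertain. Shorter exon overlaps with genes on the opposite strand apply to Kmt2a, Kmt2c and Setd1a.

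**Figure D3:**
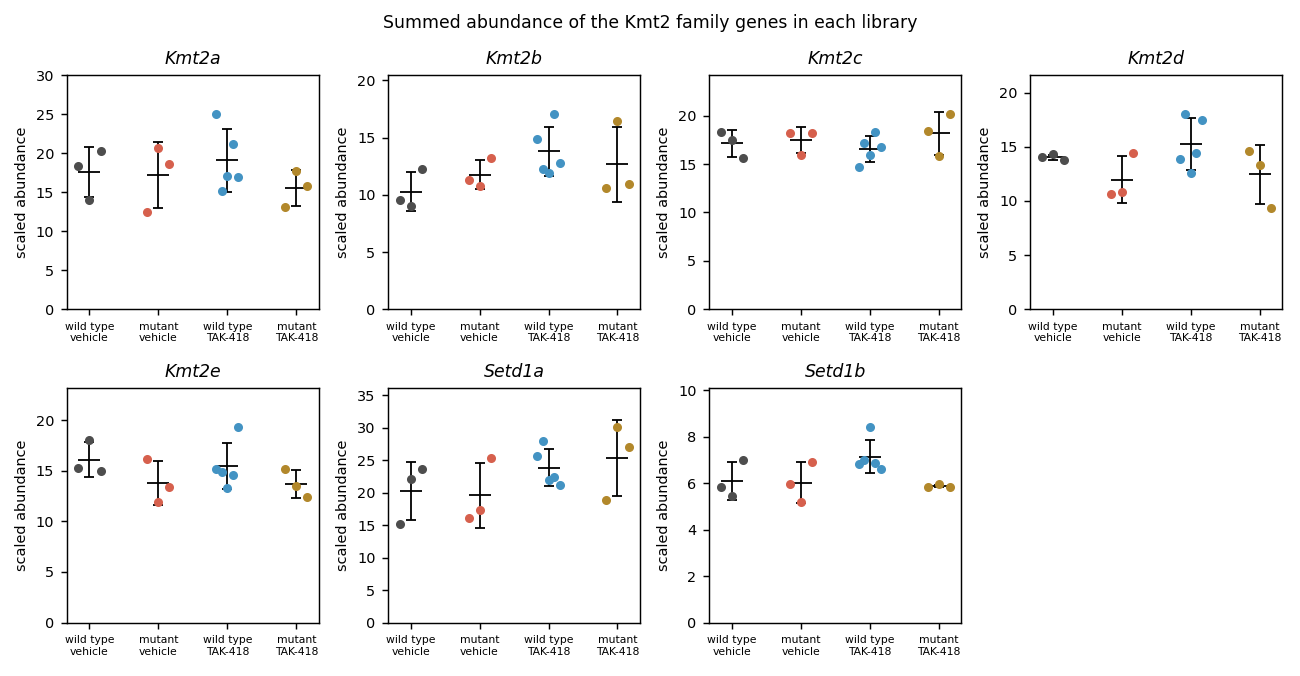
Summed scaled abundance (vertical axis) of each member in each library, by group (horizontal axis); points are libraries and bars are the mean and SD. The groups overlap for each member in each pairwise comparison except for Setd1b, where the 3 treated mutants lie below the 5 treated wild types.

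Over the family, 0 of 7 members passed an adjusted p of 0.05 in any of the 8 comparisons by limma, and 3 of the 56 unadjusted p-values were under 0.05, for values summed over all transcripts. Over all genes tested, 4.39% to 8.44% were under 0.05 in a comparison. With abundance times length, 7 of the 56 were under 0.05 and 0 were called, and the differences ran from -0.33 to 0.64 (log2). The shares over all genes are for all transcripts, and none is given for abundance times length. Setd1a, whose sum is uncertain, was among the 7. Its unadjusted p by limma was 0.0378 for TAK-418 in mutants and 0.0182 over both genotypes. For treated mutants against vehicle wild types it was 0.0463. On all transcripts the differences ran from -0.31 to 0.39 (log2), with standard errors of 0.07 to 0.29 and a smallest adjusted p of 0.517. For mutants against wild types under vehicle, 2 of the 7 had a positive difference and the median was -0.04, beside 49.8% positive and a median of 0.00 over all genes tested. Under TAK-418, 2 of the 7 had a positive difference and the median was -0.16, beside 51.1% positive and a median of 0.00 over all genes tested. With TAK-418 in mutants, 4 of the 7 had a positive difference and the median was 0.04, beside 50.8% positive and a median of 0.00 over all genes tested. With TAK-418 in wild types, 5 of the 7 had a positive difference and the median was 0.11, beside 48.97% positive and a median of 0.00 over all genes tested. For treated mutants against vehicle wild types, 3 of the 7 had a positive difference and the median was -0.04, beside 49.8% positive and a median of 0.00 over all genes tested. That last comparison called 0.0241% of all genes tested. An alternative left out the 2 libraries highest in choroid plexus genes and kept the next highest, vehicle mutant replicate 3 and treated mutant replicate 1. In it 0 of 7 members were called in each of the 8 comparisons as well. These comparisons share groups and are not independent of each other. The absence of calls does not show that the groups were alike.

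Groups that did not overlap were also counted over the 7 members and 5 comparisons between pairs of groups. On all transcripts, Setd1b for genotype under TAK-418 was the 1 case, and on multi-exon transcripts Kmt2d in the same comparison was the 1 case. The shares of all genes that were lower and higher without overlap on all transcripts were 4.5% and 4.4% for genotype under vehicle, 2.37% and 2.2% for genotype under TAK-418, 3.65% and 4.54% for TAK-418 in mutants, 2.4% and 3.93% for TAK-418 in wild types and 3.99% and 5.53% for treated mutants set against wild types given vehicle. On multi-exon transcripts they were 4.55% and 4.48% for genotype under vehicle, 2.32% and 2.19% for genotype under TAK-418, 3.75% and 4.68% for TAK-418 in mutants, 2.44% and 4.05% for TAK-418 in wild types and 4.03% and 5.68% for treated mutants set against wild types given vehicle. These shares are the background for the 1 case on each measure.

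**Figure D4:**
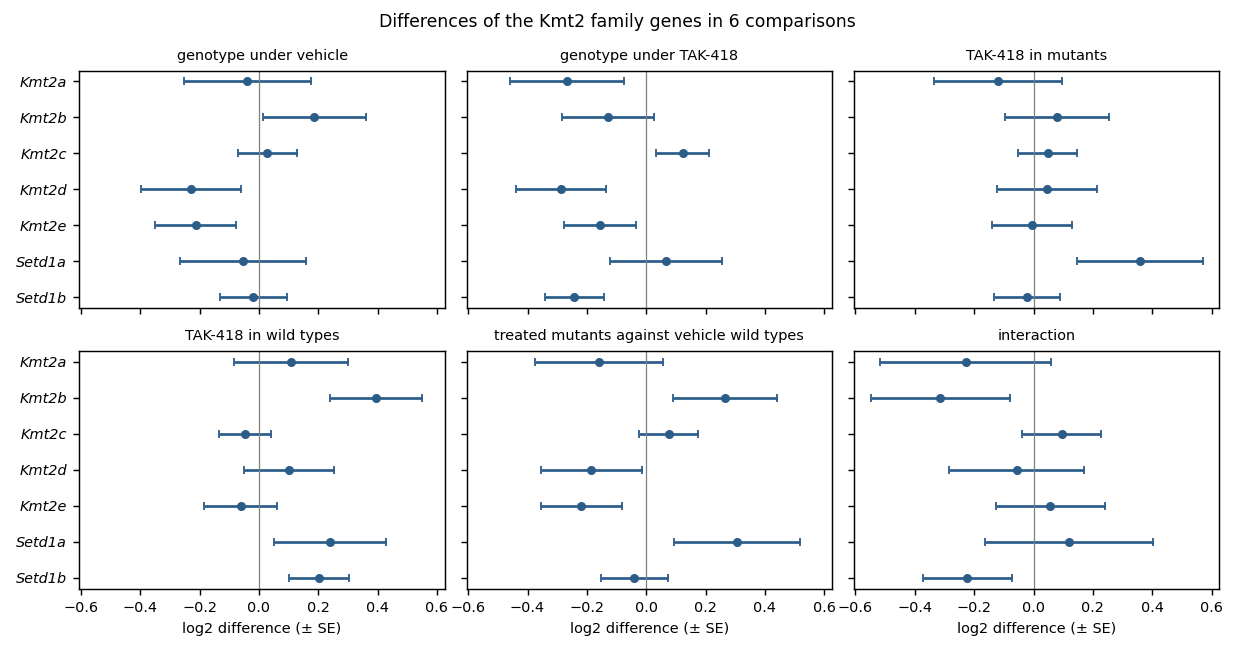
Log2 difference of each member (horizontal axis, point) with its standard error from limma (bar), in 6 comparisons. The points lie between -0.31 and 0.39, and 0 of the 7 members passed an adjusted p of 0.05 in any panel.

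The level per length was compared between members by intron support, with introns 36 to 58 for Kmt2c and introns 2 to 6 for Setd1a. The order by mean over the 14 libraries (± SD) was Kmt2e at 14.9 ± 2.03, Kmt2c at 14.6 ± 0.834, Kmt2a at 12.6 ± 4.30, Kmt2d at 12.2 ± 1.88, Setd1a at 11.8 ± 1.89, Kmt2b at 11.5 ± 1.22 and Setd1b at 6.23 ± 0.623. Among the first 6 no neighbours differed beyond their spread: each was above the next in 6 to 9 of 14 libraries. Kmt2b was above Setd1b in 14 of 14. Only neighbours in the order were counted, so the first 6 are not thereby alike. The range of Kmt2c, 13.4 to 16.7, lay above that of Kmt2b, 9.05 to 13.2. The place of Kmt2a rests in part on the 4 libraries in which its support rose after intron 26. Kmt2d, the trapped gene, had a mean between those of Kmt2a and Setd1a.

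The members did not move as a block over the libraries. Pearson's r of their log2 sums over the 14 libraries ranged from -0.56 to 0.58 over the 21 pairs, with a median of 0.05, and 11 pairs were positive. The highest pair was Kmt2d with Kmt2e and the lowest Kmt2a with Kmt2c. Kmt2a and Kmt2b had an r of 0.53, Kmt2c and Kmt2d -0.22, and Setd1a and Setd1b 0.36. These values describe the libraries, which share depth and assembly, and are not tested. The genes with the pattern most like that of Kmt2d, by Pearson's r over the 14 libraries among the genes tested, were Myh10 (0.91), Myo16 (0.91), Dpy19l3 (0.90). For 5 of the other members the closest gene was Fpgt for Kmt2a (0.90), Acot5 for Kmt2b (0.86), Hscb for Kmt2c (0.79), 4930502E18Rik for Kmt2e (0.83), Map2k3 for Setd1a (0.87). None of these 8 genes is a member of the family. Their r values are the highest among all genes tested over only 14 libraries, and what chance alone would reach was not tested.

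Assembled introns showed 8 optional stretches in 5 of the members, in each case where introns that keep it and introns that skip it were each present in at least 4 libraries, counting skipped exons and splice sites at most 30 bases apart. All 8 lie in coding sequence and have lengths that are multiples of 3, so keeping or leaving them out does not shift the reading frame. The stretches were found by this rule after the values were seen, and the shares below are of assembled transcript abundance, not of reads across the junctions. Sequences are from GENCODE M21 transcripts on GRCm38, printed 5′ to 3′ with the optional stretch in capitals and up to 20 flanking bases in lower case. They are shown for the short alternatives and for 1 exon each of Kmt2c and Kmt2e that involves an unannotated intron held in all 14 libraries. For the Kmt2c exon the bases printed after the capitals follow an annotated join that 5 libraries held.
Kmt2d, 9 bases, chr15:98856069-98856077, minus strand: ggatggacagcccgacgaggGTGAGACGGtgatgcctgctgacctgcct
Kmt2c, 12 bases, chr5:25281661-25281672, minus strand: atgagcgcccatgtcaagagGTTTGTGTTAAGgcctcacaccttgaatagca
Kmt2c, 165 bases, chr5:25294557-25294721, minus strand: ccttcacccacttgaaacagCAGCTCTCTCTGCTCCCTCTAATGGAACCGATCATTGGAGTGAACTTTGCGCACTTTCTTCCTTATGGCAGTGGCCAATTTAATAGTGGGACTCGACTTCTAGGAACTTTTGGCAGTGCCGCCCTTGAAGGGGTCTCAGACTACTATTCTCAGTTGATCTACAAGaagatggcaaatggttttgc
Kmt2a, 9 bases, chr9:44833898-44833906, minus strand: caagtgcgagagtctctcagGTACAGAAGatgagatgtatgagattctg
Kmt2b, 27 bases, chr7:30576051-30576077, minus strand: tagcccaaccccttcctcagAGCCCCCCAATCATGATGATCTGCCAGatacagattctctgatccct
Kmt2e, 126 bases, chr5:23500451-23500576, plus strand: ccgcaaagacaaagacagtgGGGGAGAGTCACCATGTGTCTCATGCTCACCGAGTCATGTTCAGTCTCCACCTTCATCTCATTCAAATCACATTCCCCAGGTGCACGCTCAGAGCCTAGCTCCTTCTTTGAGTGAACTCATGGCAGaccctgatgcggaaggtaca

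In Kmt2d the 9 bases shown, which add 3 codons, lie between 2 competing 5′ splice sites, and transcripts holding them were a share of its abundance there that ran from 0% to 63.1%, with a median of 9.92%. The shares were 13.99%, 0% and 12.3% for wild types with vehicle, 0%, 63.1% and 18.8% for mutants with vehicle, 0%, 7.27%, 0%, 15.5% and 60.1% for wild types with TAK-418 and 6.88%, 12.6% and 7.52% for mutants with TAK-418. Of the 14 libraries, 4 lacked the longer form, and vehicle mutant replicate 2 and treated wild-type replicate 5 stood above the rest.

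The 12 bases of Kmt2c, 4 codons, were kept at a share from 60.1% to 78.4%, with a median of 72.9%, with both forms in all 14 libraries. The shares were 60.1%, 78.4% and 72.5% for wild types with vehicle, 73.7%, 75.6% and 64.02% for mutants with vehicle, 69.1%, 73.4%, 65.8%, 75.2% and 70.7% for wild types with TAK-418 and 67.4%, 77.3% and 78.4% for mutants with TAK-418, and the groups overlapped. Kmt2c also held 2 optional exons in a row. Its 213-base exon at chr5:25295398-25295610 was kept at shares from 62.3% to 90.2%, with a median of 66.3%, and its 165-base exon, shown above, at shares from 43.2% to 90.2%, with a median of 63.3%. An unannotated intron after the 165-base exon was held in all 14 libraries. The annotated intron after it, held in 5 libraries, ends 72 bases further downstream, and it is the join in the printed sequence.

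The 9 bases of Kmt2a were seen in 4 of the 14 libraries, at 0%, 0%, 4.18%, 100% and 100% in treated wild types and 5.07%, 0% and 0% in treated mutants, and at 0 in all 6 vehicle libraries. The difference between treated and vehicle libraries was not tested, and 2 of the 4 were at 100% while the other two were low. In Kmt2b the 27 bases, 9 codons between competing 3′ splice sites, were kept at shares from 46.1% to 100%, with a median of 100%, and vehicle mutant replicate 1 held the lowest share.

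Kmt2e held 2 optional exons. Its 126-base exon, 42 codons, was kept at shares from 81.7% to 94.9%, with a median of 88.99%, and the intron that skips it is not annotated but occurred in all 14 libraries. The shares were 87.3%, 81.96% and 92.1% for wild types with vehicle, 85.5%, 84.7% and 94.9% for mutants with vehicle, 89.8%, 94.3%, 92.9%, 94.8% and 81.7% for wild types with TAK-418 and 88.6%, 82.8% and 89.3% for mutants with TAK-418. Its 255-base exon at chr5:23495986-23496240, 85 codons, was kept at shares from 88.1% to 100%, with a median of 96.1%, with 5 libraries at 100%. The intron that skips this exon is not annotated either. Setd1a and Setd1b held no stretch that met the rule.

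**Figure D5:**
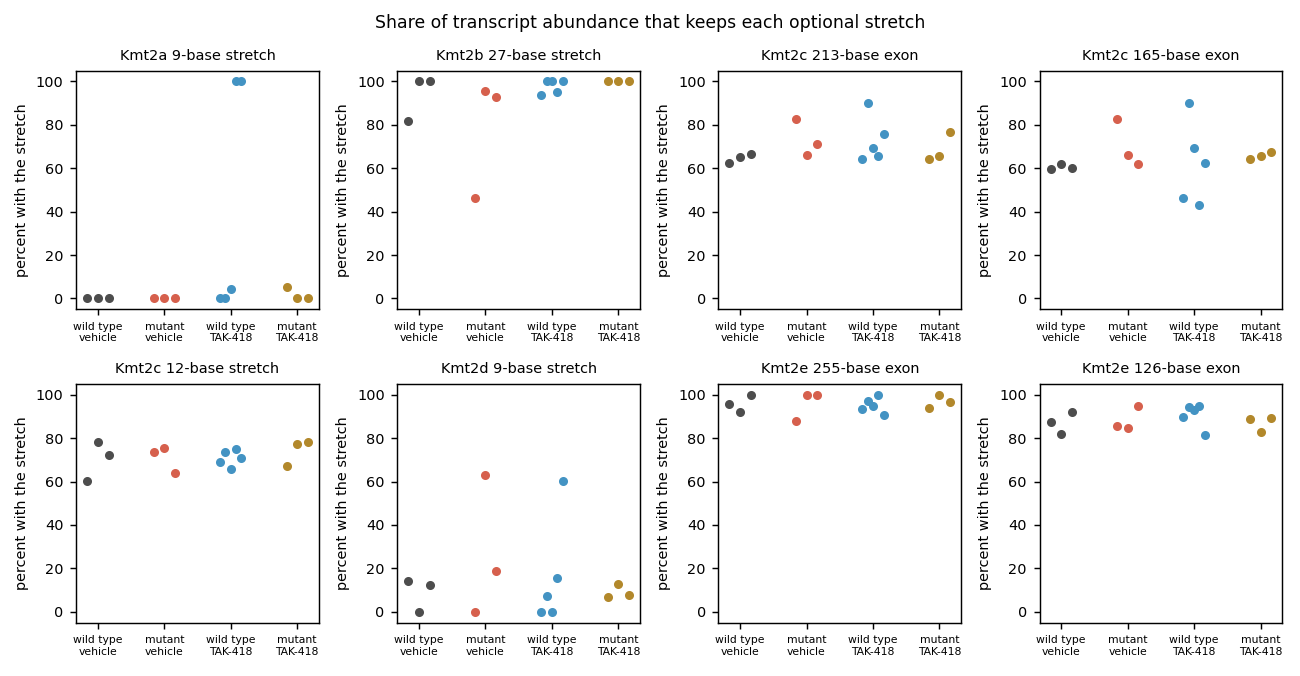
Share of assembled transcript abundance, in percent, that keeps each optional stretch (vertical axis) in each library (points) by group (horizontal axis). The Kmt2c 12-base stretch lies between 60.1% and 78.4% in all 14 libraries, and the Kmt2a 9-base stretch is above 0 in 4 treated libraries.

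Other genes of H3K4 methylation were taken as a list of 28: the 4 core subunits, 12 complex partners, 6 other reported H3K4 methyltransferases and 6 H3K4 demethylases. All 28 were tested, and 0 rose and 0 fell past the threshold in each of the 8 comparisons by limma. Men1 was listed in only 3 of the 14 libraries, Kdm5d in 8 and Pagr1a in 9, and they were at 0 elsewhere. Their standard errors ran from 0.91 to 2.29 (log2), so the absence of calls says little about these genes. Unadjusted p-values under 0.05 numbered 2, 0, 2, 0, 2, 3, 2 and 1 of 28, in the order genotype under vehicle, genotype under TAK-418, genotype over both treatments, TAK-418 in mutants, TAK-418 in wild types, TAK-418 over both genotypes, treated mutants against vehicle wild types, and interaction. The shares of the list were 7.14%, 0%, 7.14%, 0%, 7.14%, 10.7%, 7.14% and 3.57%, beside 5.46%, 4.92%, 5.85%, 4.39%, 8.44%, 8.26%, 5.38% and 4.42% of all genes tested, in the same order. The median difference over the 28 was 0.01 for genotype under vehicle and 0.08 for TAK-418 in wild types, beside 0.00 and 0.00 over all genes. Kdm1a, which encodes LSD1, the drug's target, had means of 33.6 ± 1.15 (SD, n = 3) in vehicle wild types, 32.8 ± 2.56 (SD, n = 3) in vehicle mutants, 34.7 ± 1.04 (SD, n = 5) in treated wild types and 34.2 ± 0.138 (SD, n = 3) in treated mutants. Its difference with TAK-418 was 0.06 in mutants and 0.05 in wild types, with standard errors of 0.05 and 0.05. Psip1 had the largest mean over the 14 libraries in the list at 86.6, and Smyd1 the smallest at 1.44.

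The authors' deposited tables give 1 pooled FPKM value per group for 8 loci that name a member, 2 of them for Kmt2d. Of these 32 entries in the authors' deposited tables, 0 were called, with q-values from 0.705 upward, where 0.224%, 0.218%, 0.324% and 0.611% of tested loci were called for vehicle mutants over vehicle wild types, treated mutants over treated wild types, treated mutants over vehicle wild types, and vehicle mutants over treated wild types. The authors' deposited table put Kmt2d at 2.54 for wild types and 2.42 for mutants given vehicle, and at 2.47 for wild types and 2.23 for mutants given TAK-418. A locus joint with Prkag1, the neighbour of Kmt2d, was listed at 41.97 and 32.9 in wild types and mutants given vehicle, a log2 fold change of -0.35 and a q-value of 0.9998, the largest difference of the 32 entries in the authors' deposited tables. It was listed at 41.6 and 37.9 in treated wild types and mutants in the authors' deposited table, and how reads were split between the Kmt2d loci is not given in the sources used here. For Kmt2b the authors' deposited tables gave 11.1 in vehicle wild types and 12.5 in treated mutants, the largest rise among the member loci, with a log2 fold change of 0.17 and a q-value of 0.9997. Kmt2c was listed at 14.4 and 14.6 for wild types and mutants given vehicle in the authors' deposited table, Kmt2a at 10.7 and 10.3, and Kmt2e at 18.4 and 19.1. Setd1a appears in these tables in a locus joined with 5 other names, among them Fbxl19 and Hsd3b7, and Setd1b in a locus joined with RP23-371A16.3, so neither has a value of its own there.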

How the data were processed

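Hippocampal RNA of 14 libraries was sequenced from NEBNext Ultra and UltraII libraries (which library used which is not stated), per the labels' protocols. TopHat2 2.1.0, FastQC and the mm10 build are named in the submitters' processing notes, and CLASS 2.1.7 assembled the transcripts, per the file headers. The abundance score that the authors deposited per transcript has no stated unit. It was read from the values as a level per length and depth: abundance times length fell on whole multiples of 1 step for 94.8% to 98.8% of low values of single-exon transcripts, within 0.1 of a step. The authors' 4 deposited tables follow the column layout of Cuffdiff, and hold group FPKM values, log2 fold changes, p-values and q-values. Their group order was checked against the libraries: in 8 of 8 value columns the closest group mean was that of the group in the table's name.

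Transcripts were assigned to GENCODE M21 genes (GRCm38) by a shared intron, single-exon ones by 50% exon overlap, and summed per gene. A gene needed a value in 3 or more libraries (16569 of 18722 genes). The scale was log2(value + 0.882), the pseudocount being the 10th percentile of positive values. Fold changes are on that scale, which understates those of low genes. Scaling used the median of ratios, from 13273 genes. limma 3.58.1 (lmFit, eBayes with trend) in R 4.3.3 fitted 4 group means over all 14 libraries with 8 contrasts. Benjamini-Hochberg adjustment ran over all genes tested, with a threshold of 0.05. The labels do not say whether replicates differ by litter or batch. Differences of Kmt2d introns were compared by an exact permutation test within treatment. The limma fit was tried on simulated data first. Python 3.11.15, numpy 2.4.6, pandas 2.3.3 and matplotlib 3.10.9 did the rest.

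Named genes were the 7 members, the H3K4 list by counts with Kdm1a and the genes of smallest and largest mean, and the genes most like each member (that for Setd1b is not reported here). The rule for the members uses no measured value, but the family and the lists were chosen with earlier results of these data known. Alternatives changed the pseudocount, filter, scaling, transcripts counted, trend, groups fitted and libraries.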

Additional observations from a re-analysis of the deposited data

Results flagged for a closer look

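Among the members, 21 sets of values were checked for a library apart from the rest, and 1 was found. The sets were gene sums, multi-exon sums and intron levels, all in the same 5 treated wild-type libraries. The summed abundance of Setd1b was 8.43 in treated wild-type replicate 3, against 6.63 to 7.01 in the other 4 treated wild types. With multi-exon transcripts alone it was 5.88. Chance marks about 1 in 20 such sets. The 21 sets share libraries and some share values, so they are not independent of each other. Groups of 3 were not checked.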

How the results depend on the processing

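The count of 0 of 7 members called was the same under all 205 alternatives run over the 8 comparisons, with a smallest adjusted p of 0.386 (limma, TAK-418 over both genotypes without vehicle mutant replicate 3). The Kmt2d difference kept its sign under every alternative run in 6 of the 8 comparisons. With TAK-418 in mutants (main value 0.04) it ran from -0.0754 to 0.22 when 1 library was left out, with 4 of 14 below 0 (without vehicle mutant replicates 1 or 2, or treated mutant replicates 1 or 2), and was -0.0265 without vehicle wild-type replicate 3 and vehicle mutant replicate 1, the libraries highest in choroid plexus genes, an alternative chosen after seeing the data. The interaction (main value -0.06) ran from -0.18 to 0.12 when 1 library was left out, with 3 of 14 above 0 (without vehicle mutant replicate 3, treated wild-type replicate 2 or treated mutant replicate 3), and was 0.22 with the highest transcript only. The cause was not tested. Without treated mutant replicate 3, treated mutants differed from vehicle wild types in Kmt2d by -0.0078, in place of -0.18. The difference in the Kmt2d intron ratio stayed between -0.003 and 0.0028 when 1 library was left out. Full-length assembly holds this ratio near 0 in each library, so its stability says nothing about where transcripts end. Over all genes, calls numbered 0 to 4 per comparison as reported and 0 to 16 over the alternatives.

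Fits on the compared groups alone were not run for the interaction or for differences over both treatments or both genotypes, since these use all 4 groups. No paired analysis was possible because the replicate numbers follow accession order and pair no samples. A level of 0 means that no assembled transcript was assigned to the gene. Transcripts of a gene can be assigned to an overlapping gene, as some that hold Setd1a introns were. A 0 therefore does not show that a gene was not expressed. Depth limits how much of a long or weak gene was assembled.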
